A study of Mus musculus with 10 samples.

Results

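Apolipoproteins are the protein part of the particles that carry fat and cholesterol in blood, and the liver is their main source. The 10 apolipoprotein genes described here (Apoa1, Apoa2, Apoa4, Apoa5, Apob, Apoc1, Apoc2, Apoc3, Apoe and Apom) were chosen by name among the 39056 genes of the count table. The filter on low counts kept 15811 genes, 9 of the 10 members among them, and Apoc2 did not pass it. The samples were 3 tumours of MLK3-KO mice and 3 tumours of wild-type (WT) mice, both from animals given DEN and PB, and 2 livers each of MLK3-KO and WT mice that drank plain water. All were C57BL/6 mice aged 11 months. MLK3 is a mixed-lineage protein kinase, encoded by Map3k11, that acts upstream of the JNK pathway. DEN, a tumour initiator, was injected into the abdomen of male pups 2 weeks old, at a dose of 5 µg for each g of body weight. PB, a tumour promoter, followed after 1 week at 0.05% in the drinking water until the end, and the water-treated mice were matched to them for sex and age. The study's title places the comparison in MLK3-dependent gene expression of carcinogen-induced liver cancer.

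Several limits belong to this design. The treated samples are labelled as tumours, but the protocol for RNA extraction names treated liver, and the sources used here do not say how tumours were separated from surrounding liver. Tumour formation and exposure to DEN and PB cannot be told apart, because no treated sample is labelled as tissue without tumour. The design text calls the replicates biological. The sources used here do not say how the knockout was made or which part of Map3k11 it removes. In bulk tissue, fewer cells of a type and less RNA per cell cannot be told apart.

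In high-density lipoprotein (HDL), Apoa1 is the main structural protein and activates the enzyme that esterifies cholesterol, Apoa2 is the other abundant protein, and Apom carries sphingosine-1-phosphate. Apob is the non-exchangeable protein around which very-low-density lipoprotein is built in hepatocytes, and Apoe is the ligand by which remnant particles bind their receptors on hepatocytes. The smaller exchangeable proteins act on triglyceride-rich particles: Apoc2 activates lipoprotein lipase, Apoc3 slows lipolysis and clearance, Apoa5 promotes lipolysis, Apoc1 inhibits several lipid-transfer and uptake steps, and Apoa4 is made mainly in the gut and, in mice, also in liver.

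Library totals ran from 12408749 to 18081487 counts. Levels are CPM, read counts scaled to library size with TMM factors, and each value counts reads from near the 3′ end of a transcript, so that CPM is not divided by length. A difference was called when its edgeR quasi-likelihood p, adjusted by the Benjamini-Hochberg method over all 15811 genes, was under 0.05. Map3k11 had 5.84 to 10.3 CPM in KO tumours, 9.53 to 14.3 CPM in WT tumours, 5.38 to 5.81 CPM in KO liver and 7.91 to 14.9 CPM in WT liver. A read from the 3′ end does not check a deletion elsewhere in the gene. Afp and Gpc3, which fetal liver and liver tumours express, had 146 to 534 and 349 to 609 CPM in WT tumours and at most 6.35 and 4.96 CPM in the livers. KO tumour 2 stood apart from the other KO tumours in both genes, with 3.84 CPM of Afp and 0.488 CPM of Gpc3, so results that rest on the KO tumours are given with and without it where that changes a call.

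Together the members supplied 2.33%, 2.77% and 2.68% of all counts in KO tumours, 3.22%, 3.91% and 3.76% in WT tumours, 3.07% and 2.94% in KO liver and 2.47% and 2.49% in WT liver. The 3 WT tumours had the highest shares of the 10 libraries, and KO tumours overlapped WT liver in this sum. Apoe supplied the most counts of any member in 7 of the 10 libraries, and Apoa1 supplied the most in the 3 WT tumours.

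**Figure D1:**
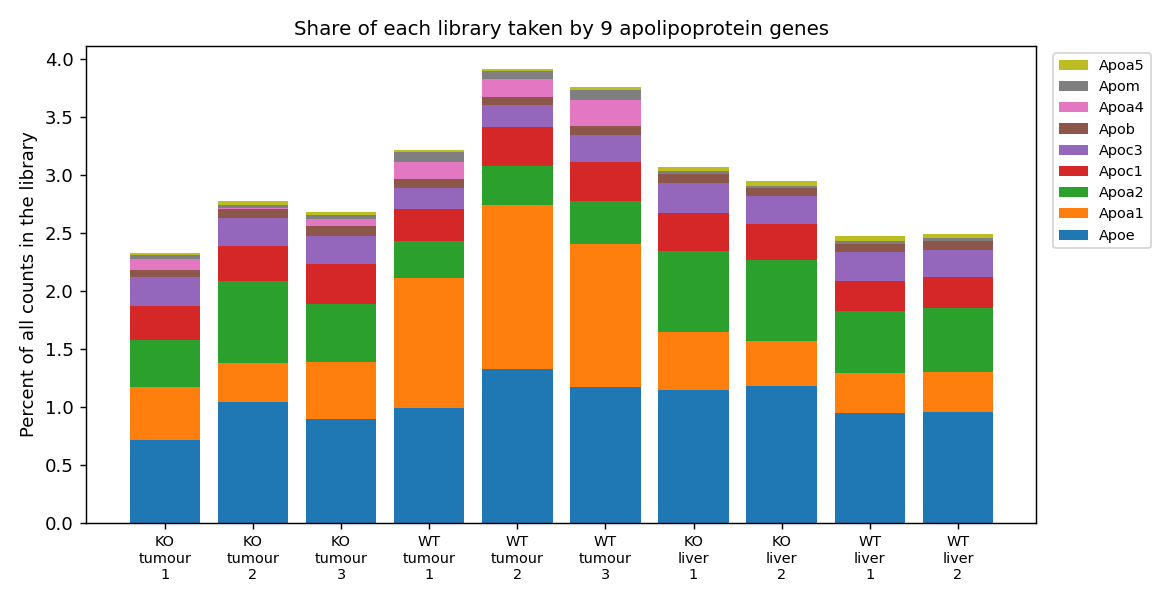
Percent of all counts in each library that came from each of 9 apolipoprotein genes, 1 stacked bar per library from KO tumours at the left to WT liver at the right. The Apoa1 segment takes 1.12% to 1.41% of the counts in WT tumours and 0.342% to 0.496% in the other libraries.

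Among the HDL proteins, Apoa1 had 4372, 3456 and 4692 CPM in KO tumours and 9699, 13950.2 and 11287 CPM in WT tumours. It had 5129 and 4287 CPM in KO liver and 3802 and 3778 CPM in WT liver. Every WT tumour lay above every library of the other groups, while KO tumours overlapped both liver groups. Apoa1 averaged 11645 ± 2148 CPM in WT tumours (SD, n = 3) and 3789.6 ± 17.0 CPM in WT liver (SD, n = 2), and it rose 3.07-fold with tumour in that genotype (log2 fold change 1.62, SE 0.24, adjusted p = 0.00054). In KO tumours, with a mean of 4173 ± 642 CPM (SD, n = 3), against KO liver, with 4708 ± 595 CPM (SD, n = 2), the log2 fold change was -0.17 (SE 0.23, adjusted p = 0.87). KO tumours set against WT tumours held 2.79-fold less Apoa1 (log2 fold change -1.48, SE 0.21, adjusted p = 0.00048). The tumour effect itself differed between the genotypes, with an interaction (KO tumour over KO liver minus WT tumour over WT liver) of -1.79 on the log2 scale (SE 0.33, adjusted p = 0.0095). That interaction had an adjusted p of 0.052 and a value of -1.65 when KO liver 1 was left out.

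Apom was also highest in WT tumours, at a lower level than Apoa1. It had 309, 246 and 354 CPM in KO tumours and 735, 713 and 790.2 CPM in WT tumours, against 236 and 191 CPM in KO liver and 234 and 229.9 CPM in WT liver. WT tumours stood above KO tumours, KO tumours stood above both liver groups, and the 2 liver groups overlapped. Apom rose 3.22-fold in WT tumours against WT liver (log2 fold change 1.69, SE 0.23, adjusted p = 0.00026). The same contrast within the knockout gave a log2 fold change of 0.50 (SE 0.22, adjusted p = 0.47). Apom fell to 303 ± 54.2 CPM in KO tumours, against 746 ± 39.7 CPM in WT tumours (SD, n = 3 each), which is 2.46-fold less (log2 fold change -1.30, SE 0.20, adjusted p = 0.00087). The interaction for Apom was -1.18 (SE 0.31) and missed the threshold with edgeR (adjusted p = 0.077), while DESeq2 called it at -1.19 (adjusted p = 0.0032); over 16 alternatives its adjusted p ran from 0.0032 to 0.26.

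Apoa2, the other abundant protein of HDL, went the other way. It had 3886, 7061 and 4839 CPM in KO tumours and 2768, 3315 and 3338 CPM in WT tumours, against 7254 and 7815 CPM in KO liver and 5999.8 and 6035 CPM in WT liver. KO liver was highest, WT tumours were lowest, and KO tumours overlapped WT liver because of KO tumour 2. Apoa2 fell to 3140.2 ± 323 CPM in WT tumours (SD, n = 3), against 6017 ± 24.7 CPM in WT liver (SD, n = 2), a log2 fold change of -0.94 (SE 0.25, adjusted p = 0.026). That call was lost without WT liver 1 (adjusted p = 0.1), without WT liver 2 (0.11), without WT tumour 1 (0.068) and with scaling by library totals (log2 fold change -0.67, adjusted p = 0.085). In KO tumours against WT tumours Apoa2 had a log2 fold change of 0.74 (SE 0.22, adjusted p = 0.08). It passed the test in 2 of 17 alternatives, without KO tumour 1 (0.92, adjusted p = 0.029) and with DESeq2 (0.72, adjusted p = 0.013). Over the 17 the log2 fold change ran from 0.47 to 0.92, with adjusted p of up to 0.3.

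The count ratio of the HDL pair within each library does not depend on how libraries are scaled. It sets Apoa1 against Apoa2 and does not show which of the pair moved. Apoa1 over Apoa2 was 1.13, 0.489 and 0.970 in KO tumours and 3.50, 4.21 and 3.38 in WT tumours, against 0.707 and 0.549 in KO liver and 0.634 and 0.626 in WT liver. All 3 WT tumours held more Apoa1 than Apoa2 reads, as did KO tumour 1, and the other 6 libraries held fewer. Apom over Apob likewise averaged 0.418 ± 0.0917 in KO tumours and 1.10 ± 0.115 in WT tumours (SD, n = 3 each), against 0.275 ± 0.0354 in KO liver and 0.289 ± 0.0226 in WT liver (SD, n = 2 each). Ratios of read counts compare the same pair across libraries and give no ratio of molecules.

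**Figure D2:**
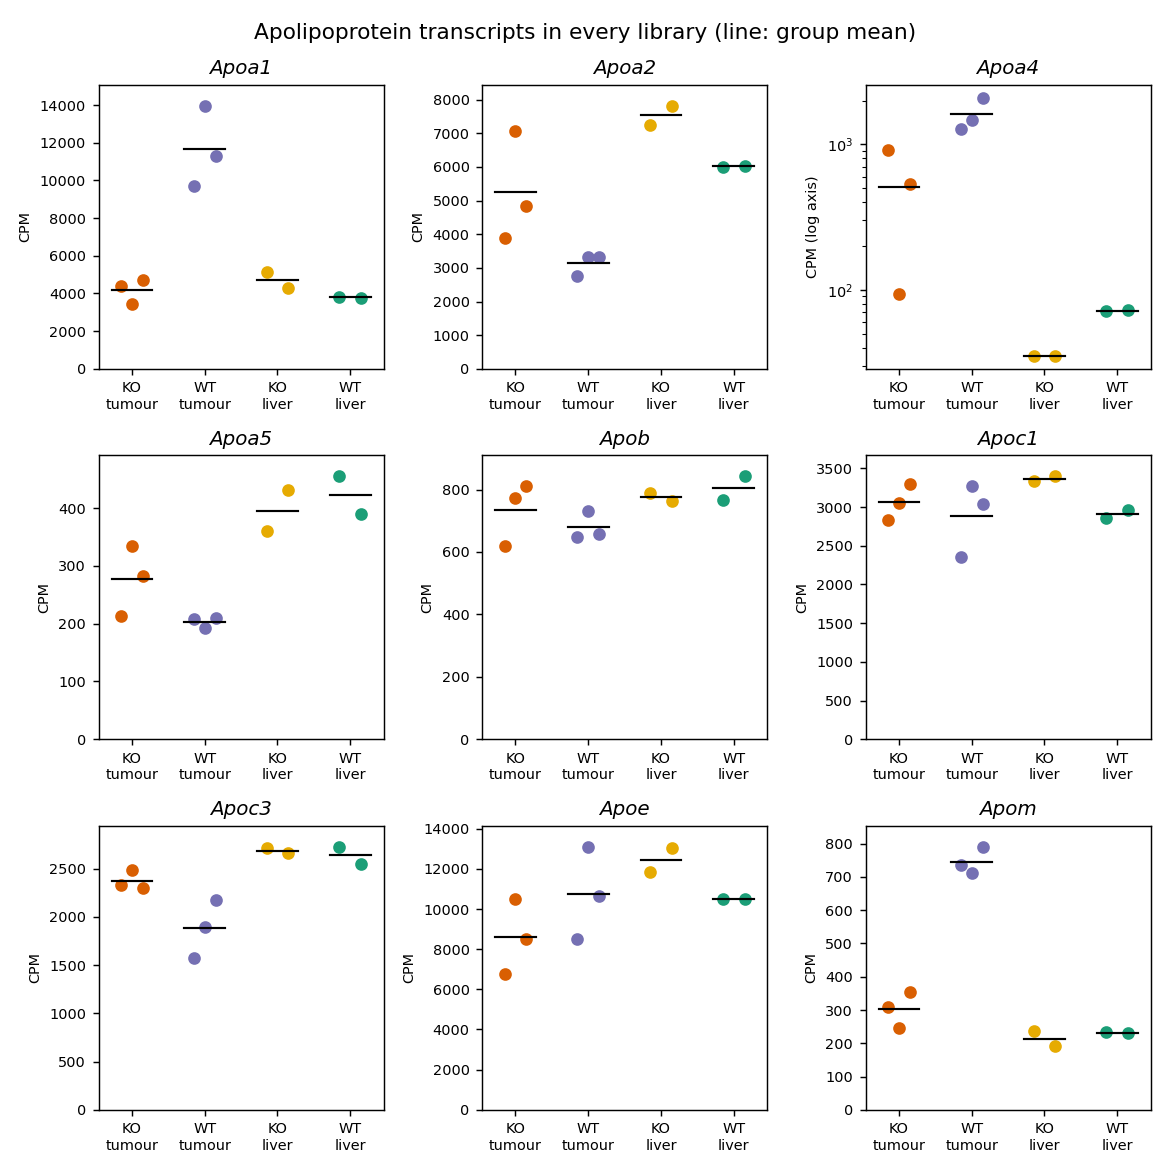
TMM-scaled CPM of 9 apolipoprotein transcripts, 1 panel per gene with KO tumours, WT tumours, KO liver and WT liver from left to right; each point is a library and each line a group mean, and the Apoa4 axis is logarithmic. WT tumours stand above all other libraries for Apoa1, Apoa4 and Apom and below all others for Apoa2, Apoa5 and Apoc3.

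Of the proteins of triglyceride-rich particles, Apoa4 had the widest range of any member. It had 909.6, 93.9 and 529.9 CPM in KO tumours and 1279, 1465 and 2089 CPM in WT tumours, against 35.3 and 35.1 CPM in KO liver and 71.3 and 72.8 CPM in WT liver. No groups overlapped, although KO tumour 2 lay close to WT liver. Apoa4 rose 22.4-fold in WT tumours against WT liver (log2 fold change 4.48, SE 0.68, adjusted p = 0.00061). In KO tumours against KO liver it rose 14.5-fold (log2 fold change 3.86, SE 0.66, adjusted p = 0.045), a call that sat at the threshold. It was kept in 6 of 17 alternatives, with log2 fold changes of 3.15 to 4.35 over the 17 and adjusted p of up to 0.32. A fit of every gene with a count is not among the 17, because its prior degrees of freedom were infinite and a gene's own spread was then not used. Leaving out KO tumour 2 kept the call. It was lost when any of the other KO tumours, either KO liver or any WT tumour was left out, with adjusted p between 0.074 and 0.16.

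Apoa4 was not called between the genotypes. KO tumours against WT tumours gave a log2 fold change of -1.66 (SE 0.51, adjusted p = 0.087). The call was reached in 2 of 17 alternatives, without KO tumour 1 (log2 fold change -2.37, adjusted p = 0.019) and without KO tumour 2 (-1.16, adjusted p = 0.029), 2 settings whose values lie on either side of the full fit. KO liver against WT liver gave -1.03 (SE 0.62, adjusted p = 0.72), and the interaction was -0.62 (SE 0.79, adjusted p = 0.84). The gene overlaps 2 annotated genes on the opposite strand, Gm47528 and Gm10680, which are not analysed here. The libraries are strand-specific, but the sources used here do not give the strand setting of the counting.

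Apoa5 had 214, 334 and 282 CPM in KO tumours and 208, 193 and 210.5 CPM in WT tumours, against 361 and 431 CPM in KO liver and 455 and 389 CPM in WT liver. Both tumour groups lay below both liver groups, WT tumours lay below KO tumours, and the liver groups overlapped. Apoa5 fell 2.07-fold in WT tumours against WT liver (log2 fold change -1.05, SE 0.22, adjusted p = 0.0079), a call that was lost without WT liver 1 (-0.93, adjusted p = 0.072). In KO tumours against KO liver the log2 fold change was -0.52 (SE 0.22, adjusted p = 0.47), and the interaction was 0.53 (SE 0.32, adjusted p = 0.54). Apoa5 overlaps Gm47544 on the opposite strand, which is not analysed here.

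Apoc3, the lipolysis inhibitor, had 2335, 2482 and 2297 CPM in KO tumours and 1575, 1891 and 2177 CPM in WT tumours, against 2710.5 and 2662 CPM in KO liver and 2726 and 2550.5 CPM in WT liver. The liver groups overlapped and lay above KO tumours, which lay above WT tumours. None of its comparisons passed the test, and the one with the largest difference, WT tumours against WT liver, had a log2 fold change of -0.49 (SE 0.21, adjusted p = 0.18). Apoc1 had 2828, 3052 and 3299 CPM in KO tumours and 2356, 3272 and 3042 CPM in WT tumours, against 3338 and 3396 CPM in KO liver and 2863 and 2961 CPM in WT liver. KO liver lay just above the other groups, which overlapped, and WT tumours against WT liver gave a log2 fold change of -0.01 with a 95% interval of -0.46 to 0.44. That interval bounds the change of Apoc1 and does not show that there was none.

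Apoc2, the activator of lipoprotein lipase, was listed at 0 in all 10 libraries, and no level or comparison is given for it. In the annotation it shares its strand and most of its length with Gm44805, a gene that is also listed at 0 throughout. Its neighbour Apoc4 had 394 to 694 CPM over the 10 libraries. Whether the overlap is why Apoc2 is listed at 0 was not tested.

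The structural protein Apob and the receptor ligand Apoe were not called in any comparison. Apob had 619, 774 and 811 CPM in KO tumours and 648, 730.2 and 658 CPM in WT tumours, against 788 and 765 CPM in KO liver and 768 and 842 CPM in WT liver. Each group overlapped its neighbour in the order of means, and the largest of the log2 fold changes, that of WT tumours against WT liver, was -0.25 (SE 0.20, adjusted p = 0.53, 95% interval -0.68 to 0.19). Apoe had 6787, 10482 and 8499.9 CPM in KO tumours and 8506, 13092 and 10624 CPM in WT tumours, against 11859 and 13024 CPM in KO liver and 10523 and 10499.7 CPM in WT liver. KO tumours had the lowest mean and overlapped WT tumours, and their highest value lay just under both WT livers. Apoe gave a log2 fold change of -0.53 in KO tumours against KO liver (SE 0.24, adjusted p = 0.5) and 0.03 in WT tumours against WT liver (SE 0.25, adjusted p = 0.97), and the interaction of -0.57 was not called (SE 0.35, adjusted p = 0.55). Besides hepatocytes, macrophages are a known source of Apoe.

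Read over the members, WT tumours against WT liver gave 3 genes that rose (Apoa1, Apoa4 and Apom), 2 that fell (Apoa2 and Apoa5) and 4 tested genes that were not called. In that comparison 8.34% of all tested genes were called, 3.64% higher and 4.7% lower. Groups did not overlap for 7 of the 9 members, against 37.3% of all tested genes. The members' median log2 fold change was -0.01, beside 0.09 for all genes. Scaling by library totals alone shifted the median of all genes by 0.27 in this contrast and made 65% of its calls higher, against 43.6% with TMM. It left Apoa1, Apoa4 and Apom called higher and Apoa5 called lower.

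KO tumours against KO liver gave 1 member called, Apoa4, which rose, where 0.0759% of all tested genes were called, all of them higher. Groups did not overlap for 7 of 9 members, against 26.7% of all genes, and the members' median was -0.17 beside 0.06. The count over all genes was 12, and it was 202 without KO tumour 2 and 3 without KO tumour 1 or KO tumour 3.

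KO tumours against WT tumours gave 2 members that fell, Apoa1 and Apom, and none that rose, where 4.52% of all tested genes were called, 3.25% higher and 1.27% lower. Groups did not overlap for 6 of 9 members, against 23.1% of all genes. The members' median was 0.08 beside -0.03. Without KO tumour 2, 459 of all genes were called in place of 715, and the members called were Apoa1, Apom and Apoa4. The interaction called 1 member, Apoa1, lower, where 1.59% of all genes were called, 1.22% higher and 0.367% lower. Apoa1 and Apom were called lower in KO tumours, the direction that fewer of all genes took.

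KO liver against WT liver called none of the 9 members with edgeR, where 0.00632% of all genes were called. No member had an unadjusted p under 0.05 there, against 7.28% of all genes, and DESeq2 called no member either. Groups did not overlap for 5 of 9 members, against 31% of all genes, and the log2 fold changes ran from -1.03 for Apoa4 to 0.32 for Apoa2. With 2 livers a group, the 95% interval of Apoa1 ran from -0.22 to 0.85 and that of Apom from -0.63 to 0.39. These 5 contrasts share libraries: each group enters several of them, and a high or low library moves all contrasts it enters.

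**Figure D3:**
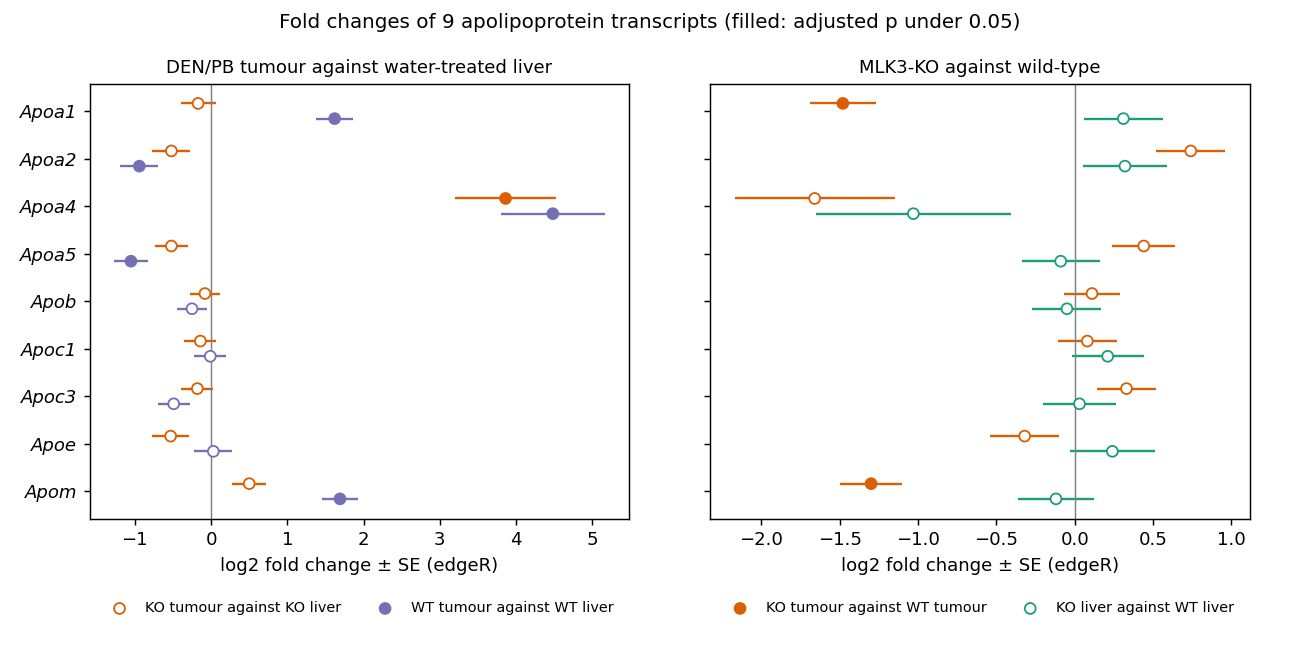
Log2 fold changes with standard errors for 9 apolipoprotein transcripts, from 1 edgeR model of all 10 libraries; the left panel sets tumours against liver in each genotype and the right panel KO against WT in each tissue, with filled points where the adjusted p was under 0.05. Apoa1 and Apom lie to the right of 0 in WT tumours (1.62 and 1.69) and to the left of 0 in KO tumours against WT tumours (-1.48 and -1.30).

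The bases just upstream of the annotated starts are shown for the pair that rose and the pair that fell among the A-type apolipoproteins in WT tumours, since both directions occur among them. The window of Apom, the other called member, held no match to the motifs below and is not shown. Only 1 of its 250 bases lies before both the RefSeq and the GENCODE start. The lack of a match therefore does not describe the bases upstream of the GENCODE start of Apom. Sequences are from the RefSeq promoter table on GRCm38.p6, all on the plus strand, cut to the bases that lie before both the RefSeq and the GENCODE start. The table held 8 of the 10 members. Capitals mark matches, on either strand, to 7 motifs: the TATA box TATAAA, the CCAAT box (read as ATTGG on the other strand), the nuclear receptor half-site AGGTCA, the HNF1-type GTTAAT, the half-site TGACG of CREB and related factors, the E-box CACGTG and the HNF4-type CAAAGTNCA, the last of which was added after the sequences were read. Apoa1 is given at chr9:46228380-46228579, Apoa4 at chr9:46240594-46240695, Apoa2 at chr1:171224804-171225053 and Apoa5 at chr9:46268358-46268607.
Apoa1: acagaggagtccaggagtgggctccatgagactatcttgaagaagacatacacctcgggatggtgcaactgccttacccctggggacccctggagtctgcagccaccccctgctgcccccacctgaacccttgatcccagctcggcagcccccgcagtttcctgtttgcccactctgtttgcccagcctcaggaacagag
Apoa4: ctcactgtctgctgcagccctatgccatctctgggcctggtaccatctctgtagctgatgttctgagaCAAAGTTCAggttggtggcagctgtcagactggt
Apoa2: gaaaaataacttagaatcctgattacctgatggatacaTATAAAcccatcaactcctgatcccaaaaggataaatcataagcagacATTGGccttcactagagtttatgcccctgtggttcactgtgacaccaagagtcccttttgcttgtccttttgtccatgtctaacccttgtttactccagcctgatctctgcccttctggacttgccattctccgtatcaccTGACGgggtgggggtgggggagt
Apoa5: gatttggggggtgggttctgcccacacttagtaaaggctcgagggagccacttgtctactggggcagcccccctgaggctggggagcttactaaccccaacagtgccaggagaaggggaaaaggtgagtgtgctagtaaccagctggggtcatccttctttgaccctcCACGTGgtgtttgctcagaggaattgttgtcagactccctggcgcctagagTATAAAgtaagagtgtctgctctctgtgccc
No motif of the 7 was found for Apoa1. Apoa4 had CAAAGTTCA, which starts 182 bases before its RefSeq start, and 1.19% of 32851 promoter windows of 250 bases hold that motif. Apoa2 had TATAAA at 212, ATTGG at 164 and TGACG at 23 bases before its start, and 12.4% of windows hold TATAAA, 33.8% CCAAT and 17.8% TGACG. Apoa5 had TATAAA at 31 and CACGTG at 82 bases before its start, and 6.02% of windows hold CACGTG. The motifs AGGTCA and GTTAAT, held by 14% and 6.43% of windows, were absent from the 4 sequences shown. Apoa2 and Apoa5 each have another RefSeq start, whose window is not shown. For Apoa2 that window had AGGTCA at 238 and CCAAT at 128 bases before the start. For Apoa5 it had TATAAA at 56 and CACGTG at 107 bases before the start. A match describes these letters and is no evidence of binding.

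Position gave another way to group the members. Apoa1 (chr9:46228580-46230466), Apoc3 (chr9:46232933-46235636), Apoa4 (chr9:46240696-46243459) and Apoa5 (chr9:46268633-46271919) lie within 1 cluster on GRCm38, Apoc3 on the minus strand and the others on the plus strand. The other members lie elsewhere: Apoe (chr7:19696109-19699188), Apoc1 (chr7:19689481-19692660) and Apoc2 (chr7:19671579-19677941) together on the minus strand, Apoa2 at chr1:171225054-171226379, Apob at chr12:7977648-8016835 and Apom at chr17:35128997-35132050. Within the cluster on chromosome 9, the log2 fold changes in WT tumours against WT liver were 1.62, -0.49, 4.48 and -1.05 in the order Apoa1, Apoc3, Apoa4 and Apoa5, so the called members of this cluster differed in direction, Apoa1 and Apoa4 higher and Apoa5 lower. Apoa1 over Apoc3, genes whose midpoints are 4.8 kb apart, averaged 1.77 ± 0.337 in KO tumours and 6.24 ± 1.10 in WT tumours (SD, n = 3 each), against 1.75 ± 0.199 in KO liver and 1.44 ± 0.0611 in WT liver (SD, n = 2 each). None of 22 tested neighbours, 11 of this cluster and 11 of the Apoe cluster, was called by edgeR in any comparison. In WT tumours against WT liver 2 of them had an unadjusted p under 0.05, against 21.4% of all tested genes, and DESeq2 called 1, Tagln (3.60 with edgeR, SE 1.52, adjusted p = 0.18), while both counts were 0 in the other comparisons. With 1 library left out, some edgeR fits called a neighbour in WT tumours against WT liver or in the interaction.

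**Figure D4:**
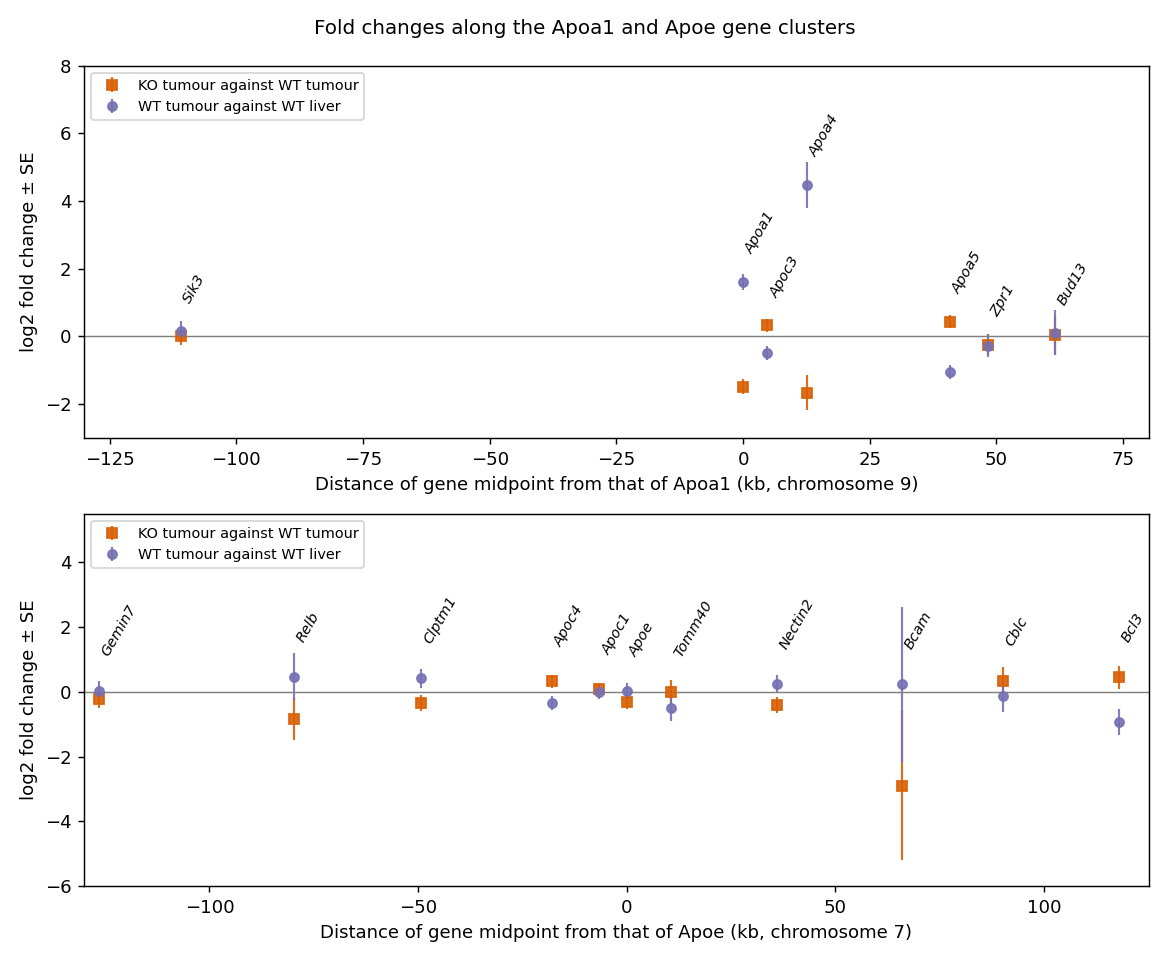
Log2 fold changes with standard errors against the distance of each gene's midpoint from that of Apoa1 on chromosome 9 (top) and of Apoe on chromosome 7 (bottom), for KO tumours against WT tumours (squares) and WT tumours against WT liver (circles). In WT tumours against WT liver and in KO tumours against WT tumours, Apoa1 had 1.62 and -1.48 and Apoa4 4.48 and -1.66. Apoc3 had -0.49 and 0.33, and Apoa5 had -1.05 and 0.44, in the same contrasts. Sik3, Zpr1 and Bud13, the genes plotted in the top panel that are not members, stay within 0.27 of 0. Neighbours farther away, Tagln among them, are outside the plotted window.

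For the 3 members with the widest range of group means, the most similar profiles were sought among 7627 genes averaging at least 10 CPM, as the root mean square difference of centred log2 CPM over the 10 libraries. Apoa1, with a range of 1.60, was most like Serpina1b (0.12), F11r (0.16) and Kng1 (0.16). Apom, with a range of 1.81, was most like Alcam (0.19), Sirpa (0.21) and Aig1 (0.22). Apoa4, with a range of 5.48, was most like Nid1 (0.50), Cd63 (0.53) and Itih5 (0.55). These are descriptions over 10 libraries that also share group and depth.

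Genes that act with the apolipoproteins were read from lists of known roles, and their counts stand beside the shares of all tested genes called: 3.64% higher and 4.7% lower in WT tumours against WT liver, and 3.25% higher and 1.27% lower in KO tumours against WT tumours. Among 17 tested minor apolipoproteins and HDL-carried proteins, 1 rose and 7 fell in WT tumours against WT liver, and 4 rose and 1 fell in KO tumours against WT tumours. The 7 became 2 without WT liver 1 and 4 without WT tumour 2 or WT tumour 3, and the 4 became 2 without WT tumour 2, WT tumour 3 or KO tumour 1. Pon1, the HDL-bound paraoxonase, had 488 ± 220.4 CPM in KO tumours and 49.3 ± 12.6 CPM in WT tumours (SD, n = 3 each), against 629 ± 134 CPM in KO liver and 719 ± 199 CPM in WT liver (SD, n = 2 each). It fell in WT tumours against WT liver (log2 fold change -3.86, SE 0.35, adjusted p = 6.1e-06) and was higher in KO than in WT tumours (3.31, SE 0.33, adjusted p = 1.9e-05), the opposite pattern to Apoa1. Apol7a fell likewise (-1.67, adjusted p = 0.005), a call lost without WT liver 2, and was higher in KO than in WT tumours (1.56, adjusted p = 0.0067). Saa4, a constitutive serum amyloid A of HDL, fell in WT tumours (-1.91, adjusted p = 0.0054), a call lost without WT liver 1. Clu, an HDL-associated chaperone, was the gene of this list that rose (1.00, adjusted p = 0.032), and it was lost without any 1 of 4 libraries: WT liver 1, WT liver 2, WT tumour 2 or KO tumour 3. The acute-phase Saa1 spread from 65.7 to 2700.1 CPM within the KO tumours alone, and its call in KO against WT tumours (4.19, adjusted p = 0.027) was lost without KO tumour 1 or any WT tumour.

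Of 22 tested genes for the assembly and secretion of Apob particles, none rose and 3 fell in WT tumours against WT liver, while 2 rose in KO tumours against WT tumours. Ces3a, a liver carboxylesterase, averaged 741 ± 288 CPM in KO tumours and 47.2 ± 28.2 CPM in WT tumours (SD, n = 3 each), against 1151 ± 84.0 CPM in KO liver and 1259 ± 60.6 CPM in WT liver (SD, n = 2 each). It fell in WT tumours against WT liver (log2 fold change -4.73, SE 0.48, adjusted p = 2e-05) and was higher in KO than in WT tumours (3.97, SE 0.45, adjusted p = 6.4e-05). A1cf, a cofactor of Apob mRNA editing, fell in WT tumours (-1.67, adjusted p = 0.0051) and was higher in KO than in WT tumours (1.58, adjusted p = 0.0064), and Ces1g fell in WT tumours (-2.29, adjusted p = 0.0029). These genes moved in contrasts in which Apob itself was not called.

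Among 13 genes of HDL formation and remodelling, 2 rose and 1 fell in WT tumours against WT liver, and 1 rose and 1 fell in KO tumours against WT tumours. Lipc, hepatic lipase, fell in WT tumours (log2 fold change -2.44, adjusted p = 0.0014) and was higher in KO than in WT tumours (2.77, adjusted p = 0.00043). Abcg5, a subunit of the sterol transporter to bile, rose in WT tumours (1.92, adjusted p = 0.0014). Scarb1, the HDL receptor, rose in WT tumours (0.84, adjusted p = 0.039) and was lower in KO than in WT tumours (-0.83, adjusted p = 0.033). Both Scarb1 calls were lost in many alternatives, and 9 of 17 and 10 of 17 kept them. In the first contrast the libraries whose omission ended it were WT liver 1 and 2, all WT tumours and KO tumour 3, and in the second all tumours.

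Of 11 genes of lipolysis, Lpl, lipoprotein lipase, had 110.1 ± 70.1 CPM in KO tumours and 619 ± 73.2 CPM in WT tumours (SD, n = 3 each), against 35.7 ± 5.18 CPM in KO liver and 29.2 ± 0.857 CPM in WT liver (SD, n = 2 each). It rose in WT tumours against WT liver (log2 fold change 4.41, SE 0.48, adjusted p = 3.2e-05) and was lower in KO than in WT tumours (-2.49, SE 0.37, adjusted p = 0.00064), as Apoa1 and Apom were. Angptl4, an inhibitor of that lipase, fell in WT tumours (-1.68, adjusted p = 0.021), a call lost without WT liver 1, WT tumour 1 or WT tumour 2. Lpl and Angptl4 were the list's calls in the first of these contrasts, and Lpl was its call in the other. Among 18 receptors and clearance genes, 2 rose and 1 fell in WT tumours against WT liver and edgeR called none in KO tumours against WT tumours, where 5 had an unadjusted p under 0.05, against 14.9% of all tested genes. The smallest adjusted p there was that of Lrp1 (log2 fold change 0.65, adjusted p = 0.061), which DESeq2 called. Lrp1, a receptor for Apoe-bearing remnants, fell in WT tumours against WT liver (-0.91, adjusted p = 0.01) except without WT liver 1 or with library totals. The fatty acid transporter Cd36 rose (1.23, adjusted p = 0.032), a call lost without WT liver 1, WT liver 2, WT tumour 1 or WT tumour 2.

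Among 39 transcription factors known for apolipoprotein genes, none rose and 8 fell in WT tumours against WT liver, and 3 rose and 1 fell in KO tumours against WT tumours. The 8 became 3 with library totals and 3 to 11 without 1 library, with 4 without WT liver 1, 5 without WT liver 2 or WT tumour 2 and 3 without WT tumour 1. The 3 that rose became 1 with library totals and 0 without WT tumour 1, KO tumour 2 or KO tumour 3. The repressor Nfil3 (log2 fold change -3.61, adjusted p = 0.00022), the bile acid receptor Nr1h4 (-1.25, adjusted p = 0.0059) and Onecut2 (-2.52, adjusted p = 0.0067) fell in WT tumours in each alternative. Nr0b2, a corepressor induced by Nr1h4 (2.16, adjusted p = 0.019), Onecut2 (1.95, adjusted p = 0.031) and Nr1h4 (0.92, adjusted p = 0.036) were higher in KO than in WT tumours. Each of these 3 calls was lost without WT tumour 1, KO tumour 2 or KO tumour 3, and that of Nr1h4 also without WT tumour 2 or WT tumour 3. Hnf4a, the hepatocyte nuclear receptor, averaged 122 ± 5.28 CPM in KO tumours and 122 ± 1.23 CPM in WT tumours (SD, n = 3 each), against 132 ± 33.7 CPM in KO liver and 199 ± 30.4 CPM in WT liver (SD, n = 2 each). It was not called by edgeR in any comparison, while DESeq2 called it in WT tumours against WT liver.

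CREBH, the liver factor encoded by Creb3l3, is known to drive Apoa4, Apoc2 and Apoa5. Of 13 other genes reported as its targets, 4 rose and 5 fell in WT tumours against WT liver, and 3 rose and 2 fell in KO tumours against WT tumours. In the first contrast 4 rose and 2 fell with library totals, 2 rose and 2 fell without WT liver 1, WT tumour 2 or WT tumour 3, and 2 rose and 5 fell without WT liver 2. G6pc, glucose-6-phosphatase, fell in WT tumours (log2 fold change -4.04, adjusted p = 9.1e-07) and was higher in KO than in WT tumours (3.03, adjusted p = 1e-05). Crp fell in WT tumours (-1.58, adjusted p = 0.00062), and Fabp1, which binds fatty acids in hepatocytes, was higher in KO than in WT tumours (1.46, adjusted p = 0.0025). The list's other calls had both signs, and Apoa4 rose while Apoa5 fell in WT tumours against WT liver. The part of CREBH in these values was not tested.

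None of the 132 tested genes of these 7 lists was called by edgeR in KO tumours against KO liver or in KO liver against WT liver, while 19 and 15 of them had an unadjusted p under 0.05, against 9.61% and 7.28% of all tested genes. With 1 library left out, some edgeR fits called CREBH targets or lipolysis genes higher, or a transcription factor lower, in the first contrast. In KO tumours against KO liver the genes with the smallest p in each list included Saa1 and Saa2 (log2 fold changes 2.97 and 3.07), Sec24d and Lpcat3 (0.96 and -0.75), Lcat and Bmp1 (-0.66 and -0.55), Lpl (1.62), Lsr (-0.62) and Usf2 and Prox1 (-0.81 and -0.88). Their adjusted p ran from 0.17 for Lpl to 0.61 for Bmp1. Fgf21, a hormone and CREBH target, came closest with an adjusted p of 0.079; it was listed at 0 in both KO livers, so no fold is given. In KO liver against WT liver they included Saa2 and Saa1 (log2 fold changes -3.98 and -3.15), Sec24d and Vmp1 (-1.51 and -0.49), Abcg5 (0.92), Angptl4 and Sel1l (-1.91 and -0.60), Mylip (1.23), Srebf1 and Nfil3 (1.15 and -1.46) and G6pc (-0.92). Their adjusted p ran from 0.22 for Sec24d to 0.72 for Vmp1. Pdzk1, listed at 0 in both WT livers, and Fgf21, listed at 0 in both KO livers, had adjusted p of 0.64 and 0.36. DESeq2 called 5 of the 132 in the first of these contrasts (Fgf21, Lpl, Rxra, Sec24d and Usf2) and 3 in the other (Angptl4, Fgf21 and Sec24d).

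Marker genes of cell types moved with some of these results. The defining hepatocyte markers were all detected, and the summed CPM of the 10 was 44782.5 to 52979.8 in KO tumours and 81288.5 to 104493 in WT tumours, against 57853 to 59347 in KO liver and 51573 to 55417 in WT liver. The median log2 fold change of the 10 was -0.07 in WT tumours against WT liver, beside 0.09 for all tested genes. It was -0.23 in KO tumours against WT tumours, beside -0.03. Of the 10, 3 rose and 1 fell in WT tumours against WT liver, namely Serpina1b (log2 fold change 1.38, adjusted p = 0.0017), Alb (1.21, adjusted p = 0.0031), Serpina1a (0.92, adjusted p = 0.018) and the urea cycle enzyme Cps1, which fell (-1.33, adjusted p = 0.0019). In KO tumours against WT tumours Serpina1b (-1.47, adjusted p = 0.00048), Alb (-1.23, adjusted p = 0.0014) and Serpina1a (-1.11, adjusted p = 0.0034) were lower, in the same direction as Apoa1 and Apom. DESeq2 called these genes there and also Cps1, the marker that fell in WT tumours against WT liver. With 1 library left out, edgeR called 0 to 1 of the markers higher in KO than in WT tumours. The Serpina1a call in WT tumours was lost without WT liver 1, WT liver 2 or WT tumour 2. No hepatocyte marker was called in KO tumours against KO liver, where Serpina1a and Cps1 both had -0.38 (adjusted p = 0.59 and 0.61), or in KO liver against WT liver, where Hnf4a had -0.59 (adjusted p = 0.66) and Serpina1c 0.26 (adjusted p = 0.89). The part of these genes in the Apoa1 and Apom results was not tested.

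The 14 macrophage and Kupffer cell markers, which bear on Apoe, summed to 668 to 1026 CPM in KO tumours and 745 to 1171 CPM in WT tumours, against 486 to 768 CPM in KO liver and 487 to 511 CPM in WT liver. Cd5l (log2 fold change 1.50, adjusted p = 0.0028), Gpnmb (4.71, adjusted p = 0.0045) and Lyz2 (1.89, adjusted p = 0.017) rose in WT tumours, the last except without WT liver 1, WT liver 2, WT tumour 1 or WT tumour 3. Marco was higher (2.83, adjusted p = 0.0025) and Gpnmb lower (-4.39, adjusted p = 0.0028) in KO than in WT tumours. Marco had 3.62 in KO liver against WT liver (adjusted p = 0.12). Gpnmb had 3.90 in KO tumours against KO liver (adjusted p = 0.21). Neither was called by edgeR in these contrasts, while DESeq2 called each of them there. Some edgeR fits with 1 library left out called a macrophage marker higher in KO liver against WT liver. DESeq2 also called Clec4f, Timd4 and Trem2 in KO tumours against WT tumours, and C1qb and Timd4 in WT tumours against WT liver. The median of the 14 was -0.21 and 0.55 in these 2 contrasts, beside -0.03 and 0.09 for all tested genes. In the interaction DESeq2 called Timd4. The part of these genes in the Apoe values was not tested. Enterocyte markers bear on Apoa4, which the gut makes. Of 8 markers, Lct, Alpi, Cdx1 and Cdx2 were listed at 0 in all 10 libraries, and the sum was 41.4 to 69.0 CPM in KO tumours and 53.0 to 97.6 CPM in WT tumours, against 30.1 to 39.1 CPM in KO liver and 30.3 to 32.7 CPM in WT liver. Nearly all of it was Fabp2, which liver also expresses and which averaged 56.4 ± 13.7 CPM in KO tumours and 77.1 ± 22.4 CPM in WT tumours (SD, n = 3 each), against 34.6 ± 6.36 CPM in KO liver and 31.5 ± 1.70 CPM in WT liver (SD, n = 2 each). Fabp2, also among the CREBH targets, rose in WT tumours against WT liver as Apoa4 did (log2 fold change 1.29, adjusted p = 0.016), a call lost without WT liver 1, WT liver 2, WT tumour 2 or WT tumour 3. The part of these genes in the Apoa4 values was not tested.

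The remaining marker lists had few calls. Of the cholangiocyte markers, Tspan8 rose in WT tumours against WT liver (log2 fold change 6.53, adjusted p = 0.01) except without WT liver 1 or WT liver 2, and Sox9 was lower in KO than in WT tumours (-1.12, adjusted p = 0.0099) except without KO tumour 3. In KO tumours against KO liver Tspan8 had 6.74 (SE 1.56, adjusted p = 0.13 with edgeR), and DESeq2 called it there. Some edgeR fits with 1 library left out called a cholangiocyte marker higher there. Of the stellate cell markers, Dcn fell in WT tumours (-1.13, adjusted p = 0.02) except without WT liver 2, WT tumour 2, WT tumour 3 or with library totals. In KO tumours against WT tumours Dcn had 0.94 (SE 0.26, adjusted p = 0.052 with edgeR), and DESeq2 called it. DESeq2 also called Col1a1 in WT tumours against WT liver. No endothelial or adipocyte marker was called by edgeR or DESeq2 in any comparison, with at most 1 per list and comparison at an unadjusted p under 0.05.

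**Figure D5:**
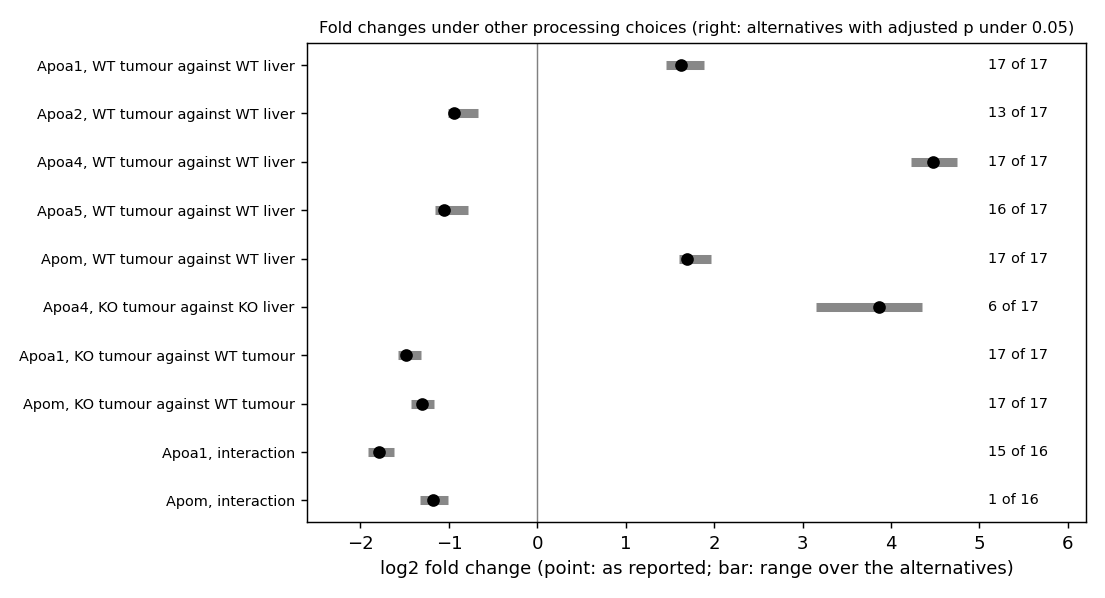
Log2 fold changes of called apolipoprotein results, and of the Apom interaction, as reported (points) and their range over the alternatives with a finite prior (bars); at the right, the number of these with an adjusted p under 0.05. Apoa1, Apoa4 and Apom in WT tumours against WT liver, and Apoa1 and Apom in KO tumours against WT tumours, were called in 17 of 17, while Apoa4 in KO tumours against KO liver was called in 6 of 17.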

How the data were processed

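RNA of liver or liver tumour was made into strand-specific QuantSeq 3′ libraries from 50 ng of total RNA, per the labels' protocols. The authors deposited a single table of raw read counts, whole numbers with 1 row per gene, made with BWA and featureCounts on mm10, per the submitters' processing notes; the sources used here do not give versions, annotation release or the handling of multi-mapped reads. No molecular identifiers are mentioned, so counts are reads.

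The table held 39056 genes, 21045 with a count. Symbols matched 38872 identifiers and not 184, and 34299 identifiers, all 10 members included, matched GENCODE M21 with the same version, from which coordinates were taken. In R 4.3.3, edgeR 4.0.16 (limma 3.58.1) filtered genes with filterByExpr, scaled libraries by TMM and fitted all 10 libraries in 1 quasi-likelihood model of the 4 groups (residual degrees of freedom 6, prior 8.78, common dispersion 0.516, a coefficient of variation of 71.8%). DESeq2 1.42.0 was an alternative, with 17 others. The procedure was tested on simulated data. Replicates differed by a chi-square of 39.8 to 94.9 per degree of freedom over genes and were counted as separate samples.

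The members and lists were chosen with earlier results of these data known. In each list up to 3 called genes with the smallest p were named per comparison, or the 2 smallest p where none was called; some lists without calls are given by their counts. Clu, Hnf4a, Afp, Gpc3, Apoc4 and Serpina1a in WT tumours were named after their values were seen. Some genes of the lists are not reported here by name.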

Additional observations from a re-analysis of the deposited data

Results flagged for a closer look

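Results are listed here because the tumour effect differed between the genotypes in the interaction test of edgeR, that is, KO tumour over KO liver minus WT tumour over WT liver on the log2 scale. Among the apolipoproteins this was Apoa1, with -1.79 (SE 0.33, adjusted p = 0.0095), higher in 3 of 3 WT tumours than in both WT livers and overlapping KO liver in KO tumours.

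Among genes that act with them, the interaction was 3.50 for Pon1 (SE 0.49, adjusted p = 0.0013), 4.10 for Ces3a (SE 0.66, adjusted p = 0.0039), 3.95 for G6pc (SE 0.43, adjusted p = 0.00012) and -2.78 for Lpl (SE 0.56, adjusted p = 0.018). The first 3 were called in 16 of 16 alternatives with a finite prior, and Lpl in all of these but that without KO tumour 3. Saa2 had 8.65 (SE 1.86, adjusted p = 0.027) and Saa1 7.34 (SE 1.59, adjusted p = 0.028), both lost without either KO liver, WT tumour 2 or WT tumour 3, and Saa1 also with the replicate block. Nfil3 had 3.03 (SE 0.67, adjusted p = 0.033), lost without WT liver 1, KO liver 2, WT tumour 1, WT tumour 2, KO tumour 2 or KO tumour 3 and with library totals. The hepatocyte markers Serpina1b and Alb had -1.60 (SE 0.32, adjusted p = 0.018) and -1.43 (SE 0.31, adjusted p = 0.027), lost without any 1 of the 4 livers, and Alb also without WT tumour 3, KO tumour 1 or KO tumour 3 and with the replicate block.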

How the results depend on the processing

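Of the 18 alternatives, that with every gene with a count is no check of the calls: edgeR estimated infinite prior degrees of freedom for it (6.17 to 11.91 in the other fits across all groups), so that each gene's own spread between replicates was not used, and its counts are given for completeness. Over the other 17 (16 for the interaction), 734 of 756 member values kept their side of the threshold, 17 lost a call, 5 gained one and none reversed a call. Left out were each library in turn, 49 Mup genes and other groups, and scaling, filter, tool and block were changed. Members called in WT tumour against WT liver (5) ranged from 3 to 5 when a library was left out, with 3 without WT liver 1. In KO tumour against KO liver (1) they were 0 with DESeq2 size factors, with a mean of 10 CPM or more, with fits of the groups compared alone and with the replicate block, and 0 to 1 without a library. In KO tumour against WT tumour (2) they were 4 with every gene that had a count and 2 to 4 without a library. In the interaction (1) they were 2 with DESeq2 and 2 with every gene with a count, and 0 to 1 without a library.

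Counts of all genes called depended more on the tool. WT tumour against WT liver gave 1318 with edgeR and 2398 with DESeq2. KO tumour against KO liver gave 12, and 427 with DESeq2, 386 with every gene with a count, 22 with library totals, 1 with a mean of 10 CPM or more, 0 with the groups compared alone; it was 54 and 50 without WT liver 1 and 2, 6, 7 and 8 without WT tumour 1, 2 and 3, 3 without KO tumour 1 or KO tumour 3 and 202 without KO tumour 2. KO liver against WT liver gave 1, and 194, 111, 0 and 0 with DESeq2, every gene with a count, a mean of 10 CPM or more and the groups compared alone, and 9 and 7 without WT liver 1 and 2, 2 without KO liver 2 and 0 without KO liver 1, WT tumour 1, WT tumour 2, KO tumour 1 or KO tumour 3. KO tumour against WT tumour gave 715, and 1209 with DESeq2, 1181 with every gene with a count and 459 without KO tumour 2. The interaction gave 251, and 705 with DESeq2 and 635 with every gene with a count. Apart from the infinite prior, the cause of these differences was not tested.

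Deviations of same-numbered libraries from their group means correlated between -0.07 and 0.06. Centring makes the 2 values of a contrast between groups of 2 the same, and low values do not exclude a shared batch. With the replicate block, Apoa4 in KO tumour against KO liver had a log2 fold change of 3.51 (adjusted p = 0.1), and the block changed no other member's call. Of 77 calls of list genes, 35 were kept in each of these alternatives and no direction reversed. Groups of 2 livers limit the liver contrasts, and leaving out 1 assumes that the lone library varies like the others.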
